A study of Mus musculus with 13 samples.

Results

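The genes described here are 10 genes of MHC class I antigen presentation, the route by which a cell shows peptides of its own proteins to CD8 T cells. They are H2-K1, H2-D1, B2m, Tap1, Tap2, Tapbp, Psmb8, Psmb9, Nlrc5 and Cd274, 10 of the 55450 genes annotated on mouse genome mm10. For each gene, peaks of H3K27ac, the acetylation of lysine 27 of histone H3 found at active promoters and enhancers, were collected over the gene body and 5 kb on each side, which is called its window. A promoter counted as called if any TSS (transcription start site) of the gene had a peak no more than 1 kb away. Of the 256200 peaks in 9 lists, 48 lay in these windows, and with overlapping peaks merged they formed 12 elements. The genes are a named pathway, chosen with earlier results of these data known.

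A class I molecule is a heavy chain, such as the products of H2-K1 and H2-D1, bound to β2-microglobulin, the product of B2m. Its peptides are cut by the proteasome, in which Psmb8 and Psmb9 are the inducible catalytic subunits of the immunoproteasome. Tap1 and Tap2 form the pump that carries peptides into the endoplasmic reticulum, and Tapbp encodes tapasin, which holds empty class I molecules to that pump. Nlrc5 encodes a transactivator of class I genes, and interferon-γ raises the whole set. Cd274 encodes PD-L1, which is also induced by interferon and which restrains the T cells that class I molecules engage. Melanoma cells are known to vary widely in this pathway.

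The 9 melanoma cell lines were each established from a tumour of a transgenic mouse on a C57BL/6J background. These mice carried a mutated, active NRAS transgene under the melanocyte promoter Tyr and were heterozygous for Cdkn2a. All had floxed Cdh1 alleles, Cdh1 being the gene of E-cadherin. The Cdkn2a status of the lines themselves was not examined here. The Ecad lines kept Cdh1, and these were the male lines Ma_1007 and Ma_1181 and the female lines Ma_1014 and Ma_1039. The ΔEcad lines had in addition Tyr::CreA, which deletes Cdh1 in the melanocyte lineage. They comprised Ma_1062 and Ma_1456 from males and Ma_1057, Ma_1064 and Ma_1069 from females. Each line gave 1 list of peaks from untreated cells in culture, so a line was the replicate, and ages of the mice are not given in the sources used here. The comparisons below ask whether H3K27ac over the pathway differed with loss of E-cadherin, with sex, or in the female ΔEcad lines. These comparisons use the same 9 lines and are not independent of each other.

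The lists held 20741 to 41663 peaks and covered 29.5 to 67.2 Mb, shortest in Ma_1069 and longest in Ma_1007. Promoters were called for 7573 to 9963 genes in the 3 female ΔEcad lines and for 11152 to 14421 genes in the other 6. The members made up 0.0100% to 0.0132% of the promoters called in the former and 0.0159% to 0.0359% in the latter, from 1 to 4 members a line. A peak list holds no reads, the depth is unknown, and a peak missing from a list is not an absence of the mark. Fewer cells with the mark and less mark per cell cannot be told apart. Promoters of 6 of 7 melanocyte markers were called in all 9 lists, and Tyrp1, the remaining marker, in 6. None of the 9 immune cell markers had a promoter called in any list, including the class II regulator Ciita, Cd74 and H2-Ab1, and neither did the 2 keratinocyte and 2 endothelial markers. Of the 2 fibroblast markers, Pdgfra was called in Ma_1007 only. Xist was called in all 5 female lines and in no male line, and 4 Y-linked genes in all 4 male lines and in no female line.

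Sequences that carry the results are given first, from RefSeq and the GRCm38.p6 genome, with matches to 4 fixed motifs in capitals. The motifs, read on both strands, were the interferon-stimulated response element (ISRE, GAAA, any 2 bases, GAAA), the interferon-γ activated site (GAS, TTC, any 3 bases, GAA), the CCAAT box (CCAAT) and the NF-κB consensus. The first 2 stretches lie before the starts of B2m, whose promoter was called in every list, and of H2-K1, whose promoter was called in none. The first is chr2:122147437-122147685 on the plus strand and the next is chr17:34000348-34000597 on the minus strand.
B2m: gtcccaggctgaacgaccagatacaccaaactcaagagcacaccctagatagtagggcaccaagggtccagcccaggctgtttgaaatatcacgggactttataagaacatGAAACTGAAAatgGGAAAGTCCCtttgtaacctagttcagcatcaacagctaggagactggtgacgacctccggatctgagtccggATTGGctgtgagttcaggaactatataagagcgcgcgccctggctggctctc
H2-K1: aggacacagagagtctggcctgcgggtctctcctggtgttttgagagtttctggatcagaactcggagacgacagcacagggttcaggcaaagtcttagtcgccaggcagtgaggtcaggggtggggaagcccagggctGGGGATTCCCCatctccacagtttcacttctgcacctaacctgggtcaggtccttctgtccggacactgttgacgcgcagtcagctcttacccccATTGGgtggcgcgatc
The B2m stretch held 1 match each to the ISRE and the NF-κB consensus and a reversed CCAAT box. The H2-K1 stretch held overlapping NF-κB matches and a reversed CCAAT box, and no ISRE or GAS of exactly these letters. Over the 250 bases before the start of all 32851 RefSeq promoters, 2.98% held an ISRE, 7.02% a GAS, 33.9% a CCAAT box and 3.90% the NF-κB consensus, and a match is a description of letters and not of a bound site.

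The next 2 stretches lie in the cores, shared by every list that called them, of the elements that make up the covered length of H2-D1 and most of that of Tap2. The H2-D1 element lies upstream of the gene (chr17:35257927-35258226, plus strand, called in 6 lists) and the Tap2 element lies beyond its end (chr17:34218925-34219212, plus strand, called in 4 lists). Neither stretch touches an annotated exon, and neither element has a TSS of a protein-coding gene within 1 kb.
H2-D1 element: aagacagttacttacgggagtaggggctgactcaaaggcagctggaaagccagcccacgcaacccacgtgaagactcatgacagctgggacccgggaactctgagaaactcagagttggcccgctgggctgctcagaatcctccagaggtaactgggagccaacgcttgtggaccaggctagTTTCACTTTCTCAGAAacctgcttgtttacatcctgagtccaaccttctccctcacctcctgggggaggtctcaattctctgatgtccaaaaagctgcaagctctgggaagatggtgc
Tap2 element: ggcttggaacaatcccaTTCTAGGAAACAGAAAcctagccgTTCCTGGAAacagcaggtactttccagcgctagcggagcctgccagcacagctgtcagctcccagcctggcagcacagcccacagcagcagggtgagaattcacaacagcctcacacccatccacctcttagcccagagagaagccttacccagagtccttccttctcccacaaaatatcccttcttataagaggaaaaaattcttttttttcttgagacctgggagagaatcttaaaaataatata
The H2-D1 stretch held an ISRE on the minus strand that overlaps a GAS, and the Tap2 stretch held an ISRE, with a GAS overlapping it and another close by. These elements were searched after their positions had been seen. Among 40824 peak centres of 300 bases on the autosomes in the longest list, 5.03% held an ISRE, 10.1% a GAS and 0.583% both. The last stretch is the 64 bases between the divergent starts of Plgrkt and Cd274 (chr19:29367391-29367454, plus strand), which lay inside the Cd274 peak of all 3 lists that called it, and it held none of the 4 motifs.
Cd274 start: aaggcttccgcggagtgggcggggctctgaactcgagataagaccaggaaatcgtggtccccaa

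The 10 genes ranged from a promoter called in every list to no peak at all. B2m was called in 9 of 9 lists, Tapbp in 5, Cd274 in 3, Tap1 and Psmb9 in the same 2, and Tap2 in 1. No list called a promoter of H2-K1, H2-D1, Psmb8 or Nlrc5. B2m was the only 1 of the 6 members called at all to be called in all 9 lists, and over all genes called in at least 1 list 36% were. Members with a promoter called numbered 4 in Ma_1007, 2 in Ma_1181, 4 in Ma_1014, 2 in Ma_1039, 4 in Ma_1062, 3 in Ma_1456 and 1 in each of Ma_1057, Ma_1064 and Ma_1069. The only promoter called in the 3 female ΔEcad lines was thus that of B2m. The mean was 1.00 ± 0.00 (SD, n = 3) in these lines and 3.17 ± 0.98 (SD, n = 6) in the others, a difference of -2.17 that shrank to -0.67 with every list cut to the 20741 strongest peaks and to -0.17 among the strongest 50% of each list.

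**Figure D1:**
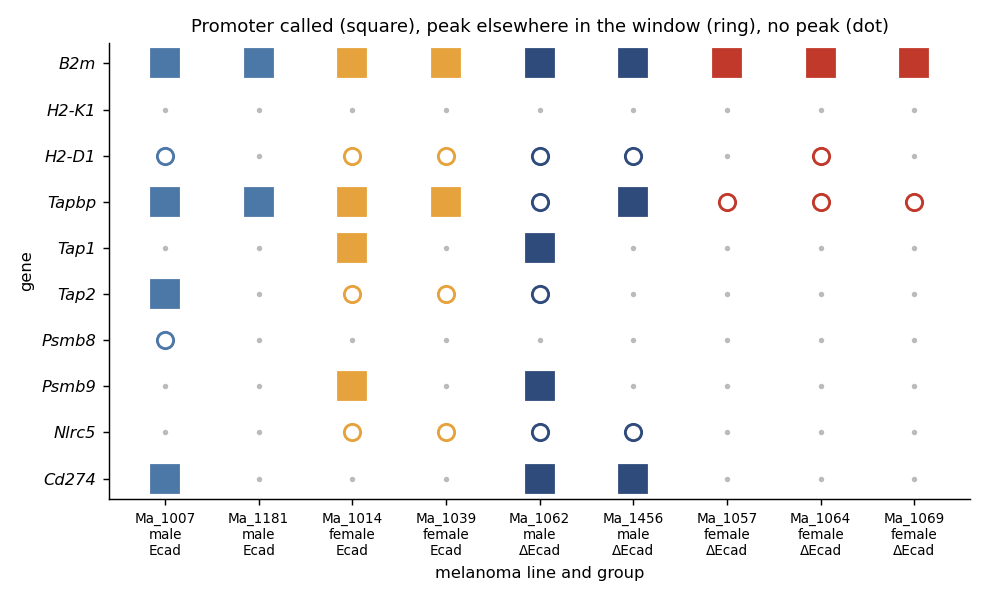
Promoter calls of the 10 genes (rows) in the 9 lines (columns, coloured by group): a square is a called promoter, a ring is a peak elsewhere in the window and a dot is no peak. B2m has squares in all 9 columns, Cd274 squares fall in 3 male lines, and the 3 female ΔEcad columns have a square for B2m alone.

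An element was counted in a list if any peak of that list overlapped it. Of the 12 elements, 6 lay at a promoter of one of the genes, 5 had a TSS of another protein-coding gene within 1 kb, and 3 had neither. Ma_1007 called 10 of the 12 elements, Ma_1014 called 8, Ma_1039, Ma_1062 and Ma_1456 called 7 each, Ma_1181 and Ma_1064 called 3 each, and Ma_1057 and Ma_1069 called 2 each. No element was called in female ΔEcad lines alone. Only 2 elements were called in all 9 lists, the B2m promoter and an element at the end of Tapbp.

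B2m, the light chain shared by all class I molecules, had the highest covered length and percentile of the set in any single line, both in Ma_1007. A single peak in each list crossed its start, within the element chr2:122145687-122149480. The covered length was 3.69 kb in Ma_1007, 2.33 kb in Ma_1181, 2.47 kb in Ma_1014, 2.71 kb in Ma_1039, 3.02 kb in Ma_1062, 2.82 kb in Ma_1456, 1.53 kb in Ma_1057, 2.61 kb in Ma_1064 and 1.45 kb in Ma_1069. The female ΔEcad lines Ma_1057 and Ma_1069 lay below all others, and Ma_1064 lay among the others. The peak was enriched 7.64-fold to 34.1-fold over background and stood between the 56.1 and the 96.7 percentile of its list by −log10 q. In Ma_1064 it stood at the 93.0 percentile and in Ma_1069 at the 56.1 percentile.

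The mean covered length of B2m was 1.86 ± 0.65 kb (SD, n = 3) in the female ΔEcad lines and 2.84 ± 0.49 kb (SD, n = 6) in the other lines. The exact permutation test over lines, two-sided and computed for each of the 24615 genes with a peak in the window in at least 1 list, gave p = 0.0476 and a Benjamini-Hochberg adjusted p of 0.215. B2m and Tapbp were the 2 members with an exact p under 0.05 in this comparison, where 22.2% of all genes tested were under 0.05. With covered length scaled to each list's total, the B2m difference was -0.33 kb (exact p = 0.369), and with 20 kb flanks it was -0.73 kb (exact p = 0.321). It stayed under 0.05 without Ma_1181 or without Ma_1064 (exact p = 0.0357 for each), and not without any 1 of the other 7 lines (exact p = 0.0536 to 0.179, with differences of -1.05 to -0.77 kb). The ΔEcad lines against the Ecad lines differed by -0.51 kb (exact p = 0.278), and the female against the male lines by -0.81 kb (exact p = 0.0952).

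H2-K1 and H2-D1 are the classical heavy-chain genes of this strain, and neither had a promoter called in any list. H2-K1 was the 1 member with no peak in its window, and the nearest peak lay 18.1 to 18.5 kb from its start in each of the 9 lists. These genes belong to a family of similar sequences, and the 250 bases before the RefSeq starts of the pair shared 166 of 190 aligned bases, 87.4%. Within 1 kb of the H2-K1 start, 11.01% of 50-base stretches had another exact copy on chromosome 17, and around H2-D1 3.28% did. Of the 1902 stretches of 100 bases around each start, the length of 1 read of a pair in the study's methods, 0 had one. How reads that match more than 1 place were treated is not given in the sources used here, and the part of shared sequence in the missing peaks was not tested.

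H2-D1 had covered length from 1 element 4.05 kb upstream of its start (chr17:35257135-35258679). The covered length was 0.90 kb in Ma_1007, 0.51 kb in Ma_1014, 0.83 kb in Ma_1039, 0.35 kb in Ma_1062, 0.95 kb in Ma_1456 and 0.65 kb in Ma_1064. Ma_1181, Ma_1057 and Ma_1069 had none. The groups overlapped, and the female ΔEcad lines differed from the others by -0.37 kb (exact p = 0.214). This is the element printed above with overlapping ISRE and GAS letters.

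**Figure D2:**
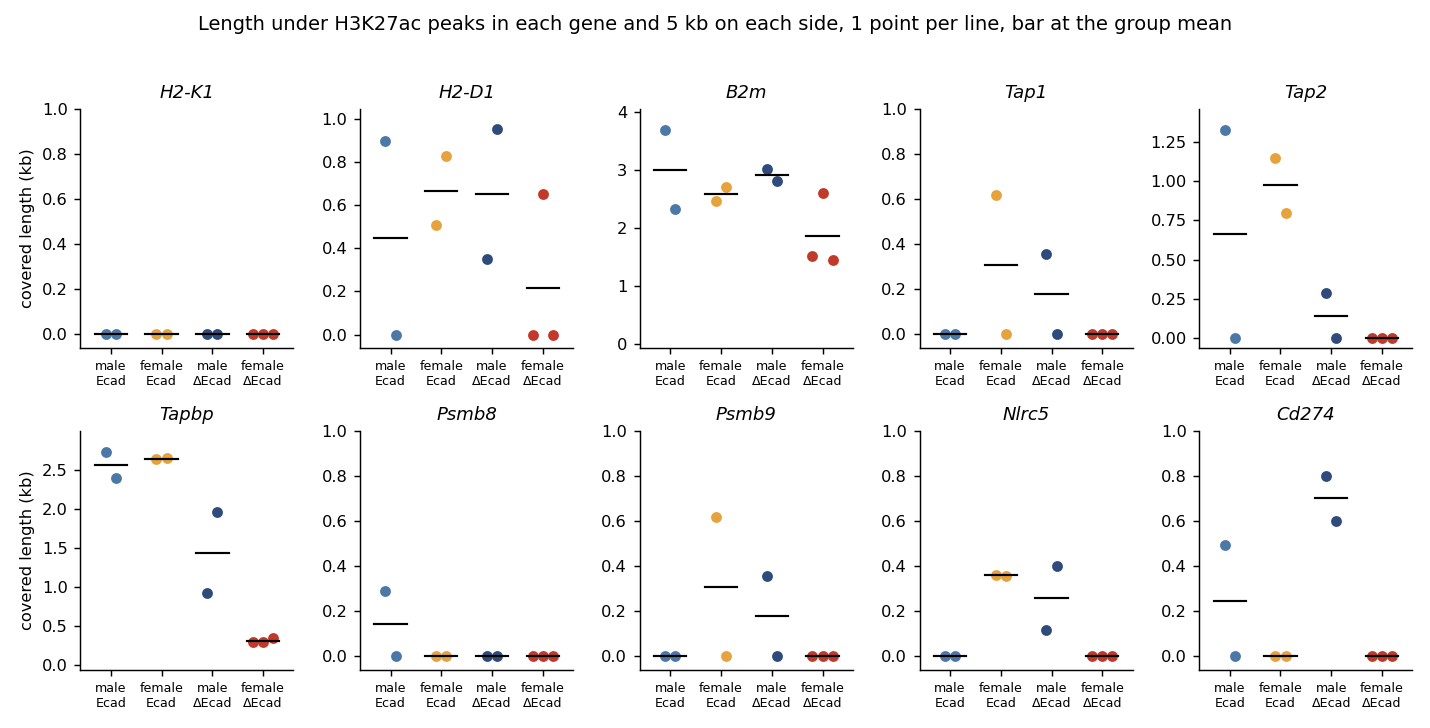
Covered length in kb (vertical axis, its scale set per gene) for each of the 10 genes in the 4 groups, with 1 point per line and a bar at the group mean. Tapbp shows 4 Ecad lines between 2.396 and 2.727 kb above all 5 ΔEcad lines, and H2-K1 is at 0 throughout.

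Tapbp, which encodes tapasin, had less H3K27ac in the ΔEcad lines than in the Ecad lines, with no overlap between the groups. The covered length was 2.73 kb in Ma_1007, 2.396 kb in Ma_1181, 2.64 kb in Ma_1014 and 2.65 kb in Ma_1039. It was 0.92 kb in Ma_1062 and 1.96 kb in Ma_1456. Among the female ΔEcad lines it was 0.29 kb in Ma_1057, 0.29 kb in Ma_1064 and 0.34 kb in Ma_1069. Over the whole window the values thus fell in 3 tiers, Ecad lines highest, male ΔEcad lines between and female ΔEcad lines lowest. The middle tier was not kept with peaks at the starts of other genes left out, unless they also lay at a start of Tapbp. The element at the start shared with Zbtb22, described below, was therefore kept. Ma_1062 then had 0, like the female ΔEcad lines, and Ma_1456 had 0.81 kb, next to 0.83 kb in the Ecad line Ma_1181.

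The mean was 0.76 ± 0.72 kb (SD, n = 5) in the ΔEcad lines and 2.60 ± 0.14 kb (SD, n = 4) in the Ecad lines, a difference of -1.84 kb (exact p = 0.0159, adjusted p = 0.283). Tapbp and Tap2 were the 2 members under 0.05 in this comparison, where 14.7% of all genes tested were. Of the 3623 genes under 0.05, 3559 were lower in the ΔEcad lines. The female ΔEcad lines differed from the other 6 lines by -1.91 kb (exact p = 0.0119, the smallest that 84 regroupings allow, adjusted p = 0.110). Within the females the difference was -2.34 kb, and within the males it was -1.12 kb, in each case with no overlap. The exact p was 0.1 and 0.3333, the smallest these numbers of lines allow. Within the females the adjusted p was 0.323, the lowest of any gene. Of all genes tested, 61.7% were lower in the ΔEcad lines within the females and 63.1% within the males. How many of them showed no overlap was not counted here. The ΔEcad effect on Tapbp in females and in males did not differ past the threshold (difference -1.22 kb, exact p = 0.367).

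The Tapbp window held 3 elements, and their patterns were unlike. The element at the outer start of the gene, which it shares with Zbtb22 (chr17:33915513-33916211), was called in Ma_1007, Ma_1014 and Ma_1039. The element at the inner start (chr17:33919556-33920422), which follows the RefSeq start of Tapbp, was called in all 4 Ecad lines and in Ma_1456. These weak peaks, 646 to 830 bp wide and 3.29-fold to 5.92-fold enriched, stood between the 1.30 and the 33.0 percentile of their lists. At this element alone the genotypes overlapped. The peak was 812 bp wide in Ma_1456, against 646, 830, 676 and 681 bp in Ma_1007, Ma_1181, Ma_1014 and Ma_1039. The Tapbp promoter was called in 4 of 4 Ecad lines and 1 of 5 ΔEcad lines (Fisher's exact p = 0.0476, adjusted p = 0.898). Of genes with a promoter called anywhere, 5.3% were under 0.05 in this comparison and 7.8% in that of the female ΔEcad lines with the others, where Tapbp was called in 0 of 3 and 5 of 6 lines (Fisher's exact p = 0.0476, adjusted p = 0.611).

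The remaining Tapbp element, at the gene's end, lies at the start of Rgl2, a neighbour that encodes a Ral guanine nucleotide exchange factor (chr17:33928957-33930541). It was called in all 9 lists, with peaks of 1554, 1566, 1272 and 1287 bp in the Ecad lines Ma_1007, Ma_1181, Ma_1014 and Ma_1039. They were 923 and 1147 bp wide in the male ΔEcad lines Ma_1062 and Ma_1456, and 293, 291 and 341 bp in Ma_1057, Ma_1064 and Ma_1069. The enrichment was 17.1-fold to 24.2-fold in the Ecad lines, 8.56-fold and 8.98-fold in the male ΔEcad lines and 4.55-fold to 4.90-fold in the female ΔEcad lines. The widest differences between lines in this window were therefore at the start of Rgl2. With this element left out, Tapbp kept a mean of 0.16 kb in the ΔEcad lines and 1.18 kb in the Ecad lines (difference -1.02 kb, exact p = 0.0159 as a single value). The female ΔEcad lines then had none and the other lines 0.92 kb, and this difference missed the threshold (-0.92 kb, exact p = 0.0595).

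**Figure D3:**
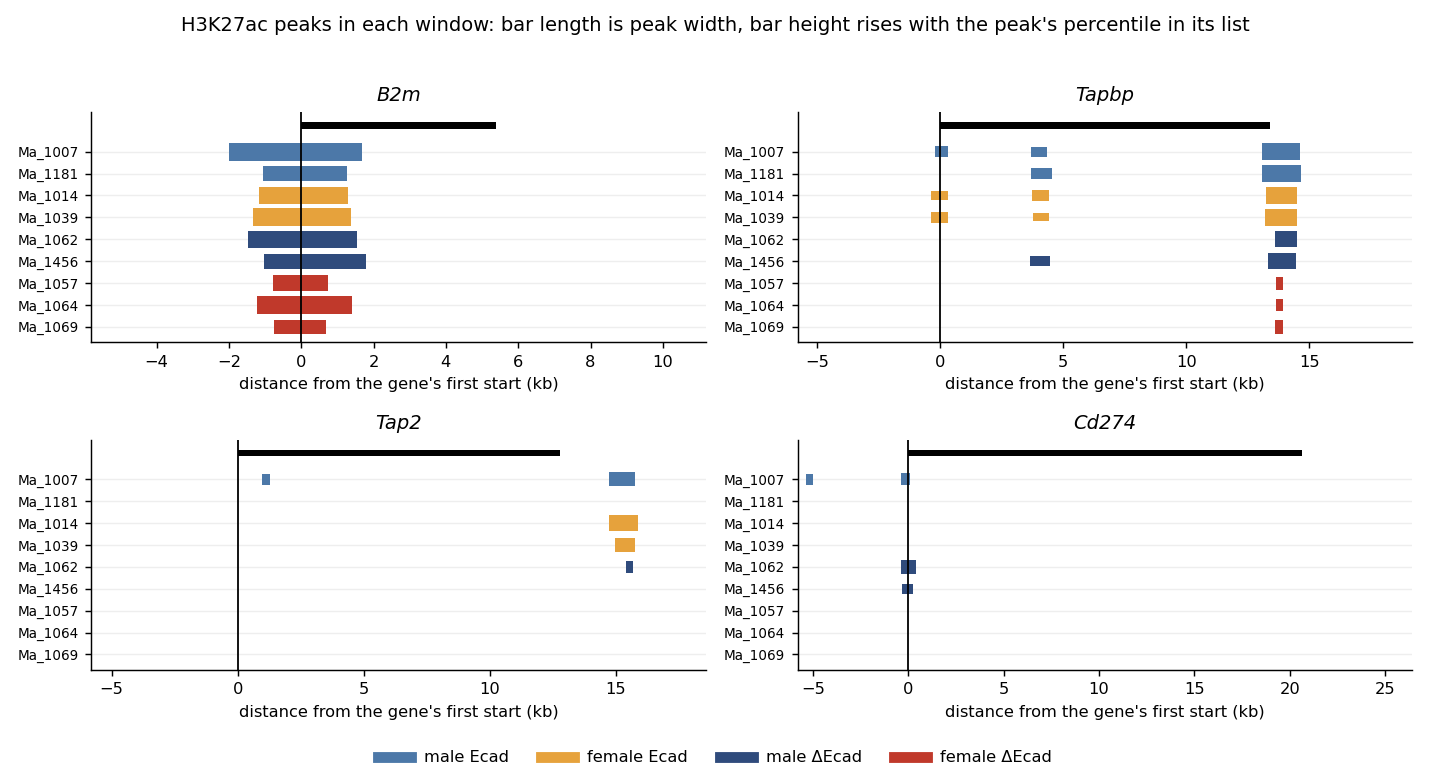
Peaks of B2m, Tapbp, Tap2 and Cd274 in each line (rows, coloured by group) by distance in kb from the gene's first start (vertical line, with the gene body as a black bar); a bar spans its peak and is taller for a higher percentile in the list. The B2m peak crosses the start in all 9 lines, and the peak at the end of Tapbp is 1272 to 1566 bp wide in the Ecad lines and 291 to 341 bp wide in the female ΔEcad lines.

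Tap1, Tap2, Psmb8 and Psmb9 lie side by side within the MHC on chromosome 17, their windows overlap, and a peak between them counts for more than 1 gene. Tap1 and Psmb9 start head to head and had the same single element (chr17:34187447-34188063). It was called in Ma_1014, with 0.62 kb, and in Ma_1062, with 0.35 kb, and the other 7 lists had no peak there. Within 1 kb of the Tap2 start, 9.99% of 50-base stretches had another exact copy on chromosome 17. The Ma_1062 peak stood at the 0.446 percentile of its list and the Ma_1014 peak at the 30.4 percentile. Neither gene differed past the threshold in any comparison, and for both the exact p was 0.722 for the ΔEcad against the Ecad lines. Psmb8 had 0.29 kb in Ma_1007 from an element at a start of Tap2 (chr17:34204507-34204796) and no peak in the other 8 lists.

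Tap2, the partner of Tap1 in the peptide pump, had covered length in 3 of 4 Ecad lines and 1 of 5 ΔEcad lines. It was 1.33 kb in Ma_1007, 0 in Ma_1181, 1.15 kb in Ma_1014 and 0.80 kb in Ma_1039, and 0.29 kb in Ma_1062 and 0 in the other ΔEcad lines. The Ecad line Ma_1181 lay with the ΔEcad lines, so the groups overlapped. The difference was -0.76 kb (exact p = 0.0476, adjusted p = 0.324). Within the females it was -0.97 kb with no overlap (exact p = 0.1, the smallest possible, adjusted p = 0.323). Nearly all of this length came from the element beyond the gene's end (chr17:34218257-34219420), whose peaks were 5.73-fold to 17.3-fold enriched and stood at the 42.3 to the 79.5 percentile. Over the gene body alone the difference was -0.07 kb (exact p = 0.444). Without Ma_1181 it was -1.03 kb (exact p = 0.0179), and with any 1 of the other 8 lines left out the exact p was 0.107 to 0.143.

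Nlrc5, the class I transactivator, had no promoter called in any list, and the peak nearest to its first start lay 46.0 to 47.2 kb away. Its window covers 92.9 kb of gene and was almost empty: 0.36 kb was covered in Ma_1014 and in Ma_1039, 0.12 kb in Ma_1062, 0.40 kb in Ma_1456 and 0 in the other 5 lines. The ΔEcad effect on this length was -0.36 kb in females and 0.26 kb in males. That difference of -0.62 kb had an exact p of 0.0167, the smallest that 60 regroupings within sex allow, and an adjusted p of 0.552. Nlrc5 was the 1 member under 0.05 in this comparison, and 5.34% of all genes tested were. The length came from the edge of an element at the start of the next gene, Cpne2 (chr8:94531911-94533734), except for a weak intronic peak of 324 bp in Ma_1456 (chr8:94498003-94498326). The Cpne2 element was also called in the male Ecad line Ma_1007, where its peak lay outside the window and added no length. With peaks at the start of other genes left out, the difference was -0.16 kb (exact p = 1).

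Cd274, which encodes PD-L1, had H3K27ac at its start in 3 of 4 male lines and 0 of 5 female lines. The covered length was 0.49 kb in Ma_1007, 0 in Ma_1181, 0.80 kb in Ma_1062 and 0.60 kb in Ma_1456, and 0 in all 5 female lines. The peaks were enriched 6.22-fold in Ma_1007, 8.47-fold in Ma_1062 and 5.42-fold in Ma_1456 and stood at the 43.6, 53.4 and 24.8 percentile. The male line Ma_1181 lay with the females. The element (chr19:29367065-29367866) spans the divergent starts of Cd274 and Plgrkt, a plasminogen receptor gene, so it belongs to both promoters.

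The female lines differed from the male lines by -0.47 kb at Cd274 (male mean 0.47 ± 0.34 kb, SD, n = 4, exact p = 0.0476, adjusted p = 0.434). Cd274 was the 1 member under 0.05 between the sexes, where 11% of all genes tested were, and 2605 of those 2698 genes were lower in the females. Promoter calls of Cd274 gave a Fisher's exact p of 0.0476 (adjusted p = 1), in a comparison in which 2.77% of genes were under 0.05. In lists cut to equal length, and among the strongest 50% of each list, the difference was -0.20 kb (exact p = 0.444). Without Ma_1181 it was -0.63 kb (exact p = 0.0179), and with any 1 of the other 8 lines left out the exact p was 0.107 to 0.143. The ΔEcad lines exceeded the Ecad lines by 0.16 kb (exact p = 0.563), and among the males the 2 ΔEcad lines lay above both Ecad lines (difference 0.45 kb, exact p = 0.3333, the smallest possible).

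No member, and no gene in the whole annotation, had an adjusted p under 0.05 in any of the 4 comparisons. The lowest adjusted p was 0.249 for genotype, 0.305 for sex, 0.110 for the female ΔEcad lines and 0.552 for the difference between the effects in females and males. The median difference over the 9 members with a peak was -0.08 kb for genotype, against -0.33 kb over all genes tested, and -0.32 kb against -0.44 kb for the female ΔEcad lines. Between the sexes it was -0.07 kb against -0.33 kb, and for the difference between the effects it was -0.49 kb against -0.12 kb. When covered length was scaled to each list's total, the median over all genes moved to -0.09 kb for genotype, and 23.3% of the genes under 0.05 were higher in the ΔEcad lines, against 1.77% unscaled. For sex this share was 16.9% against 3.45%, and for the female ΔEcad lines it was 32.9% against 7.70%. Tapbp remained lower in the ΔEcad lines on the scaled lengths (-1.52 kb, exact p = 0.0159).

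The wider pathway was followed through 40 other genes in 6 groups. Promoters were called in all 9 lists for 11 of them, in some lists for 22 and in none for 7. Over all genes called in at least 1 list, 36% were called in all 9. The number called was 33, 32, 26 and 27 in the Ecad lines Ma_1007, Ma_1181, Ma_1014 and Ma_1039, 30 and 24 in the male ΔEcad lines, and 17, 22 and 13 in Ma_1057, Ma_1064 and Ma_1069. The 3 female ΔEcad lines were thus the lowest, as they were for all genes. Of the 36 genes with a peak, 12 had less covered length in the female ΔEcad lines at an exact p under 0.05 (22.2% of all genes tested), 7 had less in all ΔEcad lines (14.7%) and 3 had less in females (11%), and none had more. In the difference between the effects, 3 of 36 were under 0.05 (5.34%).

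**Figure D4:**
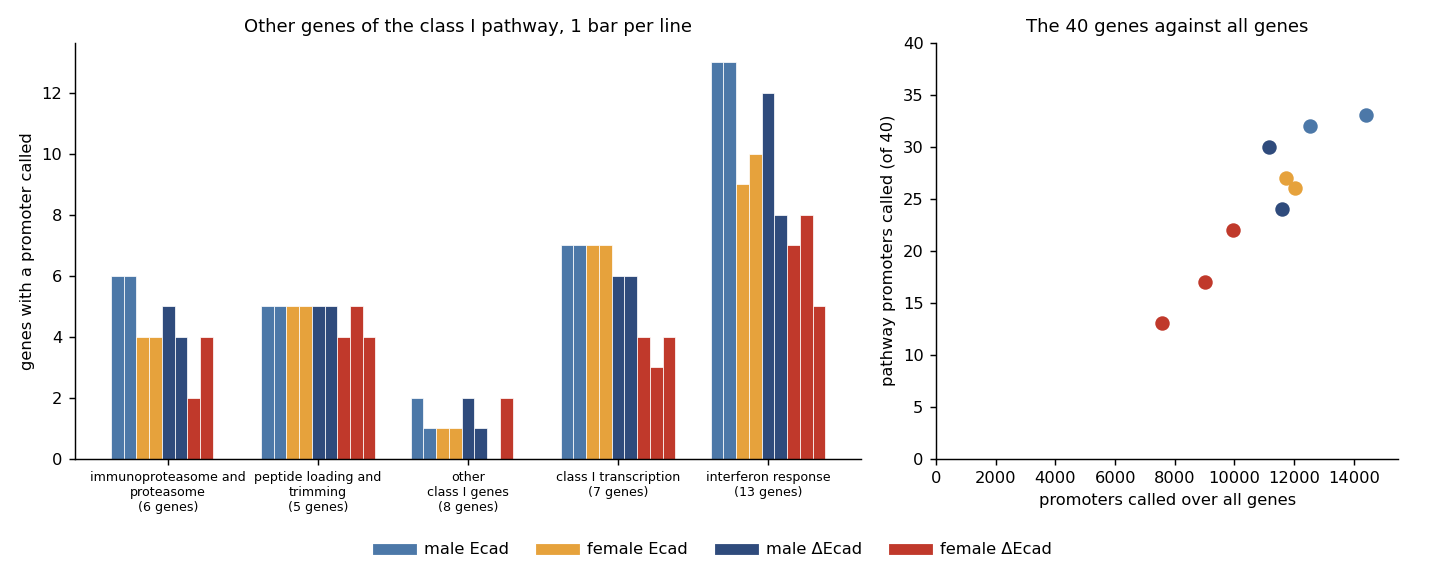
Left, the number of genes with a promoter called (vertical axis) in 5 groups of other pathway genes, with 1 bar per line coloured by group; right, the pathway promoters called of 40 against the promoters called over all genes. The female ΔEcad lines, with 13 to 22 pathway promoters, are also the lines with 7573 to 9963 promoters over all genes.

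Among the 6 proteasome genes, Psmb10, the remaining inducible catalytic subunit, had a promoter called in all 6 other lines and in none of the 3 female ΔEcad lines (Fisher's exact p = 0.0119, adjusted p = 0.289). Its covered length was 1.12 to 1.76 kb in the 6 lines and 0 in the 3 (exact p = 0.0119, adjusted p = 0.110). Psme2, a subunit of the PA28 activator, had a mean of 0.27 kb against 1.51 kb, and the constitutive subunit Psmb5 had 0.31 kb against 1.203 kb, both at the same exact p of 0.0119. Psmb7 had 0.71 kb in the ΔEcad lines and 2.43 kb in the Ecad lines (exact p = 0.0317). Psme1, the partner of Psme2, had a promoter called in 3 male lines and no female line (Fisher's exact p = 0.0476, adjusted p = 1), and Psmb6 in Ma_1007, Ma_1181 and Ma_1064. Inducible and constitutive subunits were thus both among the genes under 0.05. Over all genes tested, 22.2% were under 0.05 in covered length for the female ΔEcad lines and 14.7% for genotype. In promoter calls the shares were 7.8% for the female ΔEcad lines and 2.77% for sex.

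All 5 genes of peptide loading and trimming had a promoter called in most lists. Erap1, the aminopeptidase that trims peptides in the endoplasmic reticulum, had 0.93 kb in the female ΔEcad lines and 1.75 kb in the others (exact p = 0.0119), and the chaperone Calr had 0.97 kb against 2.79 kb (exact p = 0.0238). Pdia3, a disulfide isomerase of the loading complex, had 1.66 kb in the female lines and 2.60 kb in the male lines with no overlap (exact p = 0.00794, adjusted p = 0.305). Tapbpl, a tapasin relative, was called in every list but that of Ma_1069. Of the 8 other class I genes, H2-Q4, H2-Q6, H2-Q7 and H2-M3 had no peak in the window in any list and are named for that after it was seen, H2-T22 had a promoter called in 4 lists and H2-T24 in 6. H2-T23 and H2-K2 had no promoter called. H2-T23 had an exact p of 0.0333 in the difference between the effects, and H2-K2 had 0.76 kb in the female ΔEcad lines and 1.497 kb in the others (exact p = 0.0357). Exact copies were not counted for these 8 genes.

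Of the 7 regulators of class I transcription, Rfx5, a subunit of the RFX complex, had a promoter called in 4 of 4 Ecad lines and 1 of 5 ΔEcad lines (Fisher's exact p = 0.0476, adjusted p = 0.898). Psmb10, Rfx5, Rfxap, Nfyb and Stat2 had promoter calls under 0.05 between the female ΔEcad lines and the others. Rfxap, Nfyb and Stat2 are named after their values were seen. Each of these promoters was called in 5 or 6 of the 6 other lines and in none of the 3, and for none was the adjusted p under 0.05. Psmb10, Rfxap, Nfyb and Stat2 also had no peak in the window in the 3. Rfx5 kept a peak elsewhere in its window, at the 65.6, 70.2 and 61.1 percentile in Ma_1057, Ma_1064 and Ma_1069. Its mean covered length was 1.23 kb in the female ΔEcad lines and 1.52 kb in the others (exact p = 0.571). Of the 13 interferon response genes, 5 had a promoter called in all 9 lists, against 36% of all genes called in at least 1 list. Among these 5 were the receptor genes Ifnar1 and Ifnar2 and the kinase gene Jak2, named after their calls were seen.

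The likeness of patterns was measured as Spearman's rho of covered length over the 9 lines, among the members and the 40 genes more than 1 Mb away, as a description over lists that differ in length. The genes most like Cd274 were Pdia3 and Irf2, each with a rho of 0.82, and B2m with 0.78. Those most like Nlrc5 were Ifnar2 with 0.80, H2-K2 with 0.73 and Tyk2 with 0.68. The Nlrc5 lengths used here were mostly the edge of the element at the start of Cpne2. Without peaks at other genes' starts, Nlrc5 had 0.324 kb in Ma_1456 and 0 in every other line.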

How the data were processed

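H3K27ac peak lists of 9 lines were analysed. The submitters' processing notes name Bowtie2 2.4.5, MACS2 2.2.7.1 and deepTools 3.5.1.0.0 and mouse genome mm10 (GRCm38). Peaks were called per line, with settings not given in the sources used here, and 4 input libraries were not analysed here. The deposited columns give each peak's fold enrichment (a linear ratio), −log10 p, −log10 q and a score of 10 times the −log10 q cut to a whole number in nearly all peaks, and every −log10 q was at least 5. Lists hold no reads, so depth is unknown and no counting interval can be given.

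Genes and TSS were those of GENCODE M21. Covered length and promoter calls were computed with Python 3.11.15 (numpy 2.4.6, pandas 2.3.3, scipy 1.17.1) and compared over lines by exact two-sided permutation tests, or Fisher's exact test for calls, with Benjamini-Hochberg adjustment over all genes tested. The permutation test was tested on simulated lengths. Whether lines are independent beyond their tumour of origin is not stated, and the exact p-values hold only if lines can be exchanged between groups. Members and lists were chosen with earlier results of these data known. All members were described, and of the 40 pathway genes the first 15, in list order, with an exact p under 0.05 or a promoter called in some lists. Alternatives were the gene body, 20 kb flanks, lists of equal length, the strongest 50% of each list, scaled length, TSS distances of 0.5 and 2.5 kb, and leaving out each line.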

Additional observations from a re-analysis of the deposited data

Results flagged for a closer look

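Several members stood apart in 1 line among otherwise equal values, by Dixon's criterion, in 12 of 33 groups of 4 or 5 lines. In each case below the other lines of the group had no peak, so any single peak meets the criterion, and the 5% of groups that chance gives for untied values does not hold. Tap1 and Psmb9, which share their element, had 0.617 kb in Ma_1014 among the Ecad and among the female lines, and 0.354 kb in Ma_1062 among the ΔEcad and among the male lines. Tap2 had 0.288 kb in Ma_1062 among the ΔEcad lines. Psmb8 had 0.29 kb in Ma_1007 among the Ecad and among the male lines. Cd274 had 0.493 kb in Ma_1007 among the Ecad lines. A length of 0 in a list is a peak that did not pass its threshold, and its part in these values was not tested.

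The ΔEcad effect on the covered length of Nlrc5 differed between females and males by -0.618 kb (exact p = 0.0167, adjusted p = 0.552). The covered lengths lay at the start of Cpne2, except for an intronic peak in Ma_1456, and none lay at a start of Nlrc5.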

How the results depend on the processing

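Tapbp stayed lower in the ΔEcad lines, with an exact p under 0.05, in all 15 alternatives. The member counts under 0.05 moved as follows. For genotype the count of 2 became 1 over the gene body alone and 1 with 20 kb flanks. For sex the count of 1 became 0 in equal lists and 0 in the strongest 50% of lists. For the female ΔEcad lines the count of 2 became 1 on scaled lengths and 1 with peaks at other genes' starts left out. This last alternative was added after seeing the data, and it kept peaks that also lay at a member's own start. With 20 kb flanks the count stayed at 2, but H2-K1 took the place of B2m beside Tapbp. For the difference between the effects the count of 1 became 0 over the gene body, 0 in equal lists, 0 in the strongest 50% of lists and 0 without other genes' starts. Leaving out each line gave 1 to 2, 0 to 1, 1 to 2 and 0 to 1, the last 0 arising without a female ΔEcad line, when the regroupings cannot reach an exact p under 0.05. Members with a promoter called differed between the sexes by -0.1 in equal lists and -0.25 in the strongest 50% of lists, against -1.45, and for the female ΔEcad lines by -0.67 and -0.17, against -2.17. For genotype the difference was 0.2 in the strongest 50% of lists, against -1. No element was called in all 9 lists (0, against 2) when peaks had to cover at least 50% of it.

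Differences that turned sign were all of members not past the threshold in that comparison. For Nlrc5 they were 0.0648 kb for genotype and -0.081 kb for sex, both over the gene body and without other genes' starts, and -0.0278 kb for sex with 20 kb flanks. For sex with 20 kb flanks Tap1 and Psmb9 had -0.0376 kb and Tap2 and Psmb8 0.02 kb. Tap2 for sex had 0.0576 kb in equal lists, 0.13 kb in the strongest 50% of lists and 0.0696 kb on scaled lengths, and B2m for genotype had 0.16 kb on scaled lengths. Leaving out a line gave -0.154 to 0.0708 kb for Tap1 and Psmb9 by genotype, and by sex -0.0885 to 0.123 kb for both, -0.204 to 0.293 kb for Tap2 and -0.0395 to 0.105 kb for Nlrc5. The causes were not tested. No paired analysis was possible because the labels give the lines no shared replicate numbers. The unknown depth of the lists limits every count of missing peaks.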

Other observations

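Near Cd274 on chromosome 19, Pdcd1lg2, which encodes the related ligand PD-L2, had no promoter called in any list but had covered length in 7 of 9 lines, 1.19 to 2.84 kb, and none in the female lines Ma_1014 and Ma_1069. Jak2, the interferon-γ receptor kinase gene on the same chromosome, had a promoter called in all 9 lists and 4.49 to 11.5 kb covered.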
